A study of Mus musculus with 2 samples.

Results

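Gli3-high Foxq1 follicle lineage cells were a small group of cells from the epidermis of 2-day-old mice. They were chosen by a rule on measured transcripts. A member had over 1000 and under 8000 detected genes and under 15% of its unique molecular identifiers (UMIs, 1 per captured transcript) from mitochondrial genes. It had at least 5 Gli3 UMIs per 10,000 UMIs and at least 1 UMI of 2 or more of the lineage genes Foxq1, Krt75, Krt23, Tgm6, Aldh1a3, Vat1l and Bmper. It had under 5 Krt35 UMIs and under 20 Col1a1 and Col1a2 UMIs per 10,000, which set aside hair cortex keratinocytes and fibroblasts. The rule found 141 members among 8206 kept cells.

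The series compared 2 single-cell RNA-seq libraries, 1 per genotype. The Control library, labelled WT, came from floxed littermates without Cre. The Gli2_EKO library came from K14Cre tg;Gli2 fl/fl mice, in which Cre under the keratin 14 promoter deletes Gli2 in keratinocytes, so melanocytes, fibroblasts and immune cells keep the gene. All mice were C57BL/6N and 2 days old, and cells were released from back skin epidermis by enzyme digestion and captured with a 10x 3' kit. The number of mice in each library is not given in the sources used here. With 1 library per genotype there was no test, and the genotype and the library cannot be told apart. Every bracketed range is an exact 95% interval for counting error only.

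Gli3 and Gli2 are the transcription factors through which the Hedgehog signal acts. Sonic hedgehog binds the receptor Ptch1, which frees Smo, and Smo acts at the primary cilium on full-length Gli proteins. Gli2 is known mainly as an activator and Gli3 mainly as a repressor when no signal arrives. In the hair bulb, proliferating matrix cells around the dermal papilla make Shh and give rise to the inner root sheath and to the medulla, cortex and cuticle of the hair. Foxq1 is the forkhead factor lost in satin mice, whose hair medulla is abnormal, and Krt75 is a keratin known from the companion layer and the medulla. Kit ligand, made by hair bulb keratinocytes, acts on the Kit receptor of melanocytes.

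The Control library held 6326 cell barcodes with 71021773 UMIs, of which 4844 were kept. The Gli2_EKO library held 4296 barcodes with 48866478 UMIs, of which 3362 were kept. The libraries shared 0 barcodes, and their kept cells had similar median depths of 12276 and 12169 UMIs. Members differed more in depth between the libraries. Control members had a median of 11542 UMIs, 3802 genes and 3.08% mitochondrial UMIs. Gli2_EKO members had a median of 7208 UMIs, 2876 genes and 4.75% mitochondrial UMIs.

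Gli2 was the deleted gene and was read first. Control members held 77 Gli2 UMIs, 51.1 CPM (40.4-63.9), where CPM is the count divided by all UMIs of the cells and multiplied by 1000000. Gli2_EKO members held 13 UMIs, 58.2 CPM (31.0-99.6). All other kept cells were at 106 CPM in the Control and at 99.96 CPM in the Gli2_EKO library. A 3' tag does not cover a deletion in the body of the gene, and the deleted exons are not given in the sources used here, so these tags do not check the genotype labels.

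The share of members was lower in the Gli2_EKO library. They made up 117 of 4844 kept Control cells, 2.42% (2.00-2.89). They made up 24 of 3362 kept Gli2_EKO cells, 0.714% (0.458-1.06). The ratio of the shares was 0.296 (0.182-0.462). The Gli3 minimum was met by 384 Control and 162 Gli2_EKO cells, and 143 and 28 of these also had at least 2 lineage genes. The Krt35 limit then left out 18 Control and 3 Gli2_EKO cells, and the collagen limit left out 8 and 1. Fewer members and less Gli3 or lineage RNA per cell cannot be told apart by such a rule.

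Other classes of the follicle were set by fixed marker gates to place this ratio. Matrix-like cells, with at least 3 of Shh, Myb, Msx1, Cldn10, Edar and Hoxc13, had a ratio of shares of 0.444 (0.355-0.551). Inner root sheath-like cells, gated on Krt71, Krt25, Krt27, Krt28 and Krt73, had a ratio of 0.580 (0.425-0.784). Both classes were also lower in the Gli2_EKO library, with intervals that excluded 1. Hair shaft-like cells, with at least 5 Krt35 UMIs per 10,000, had a ratio of 0.785 (0.596-1.03), and companion-like cells, gated on Krt6a and Krt79, a ratio of 1.24 (0.742-2.06). Melanocyte-like, immune and endothelial-like and fibroblast-like cells had ratios between 0.942 and 1.02.

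**Figure D1:**
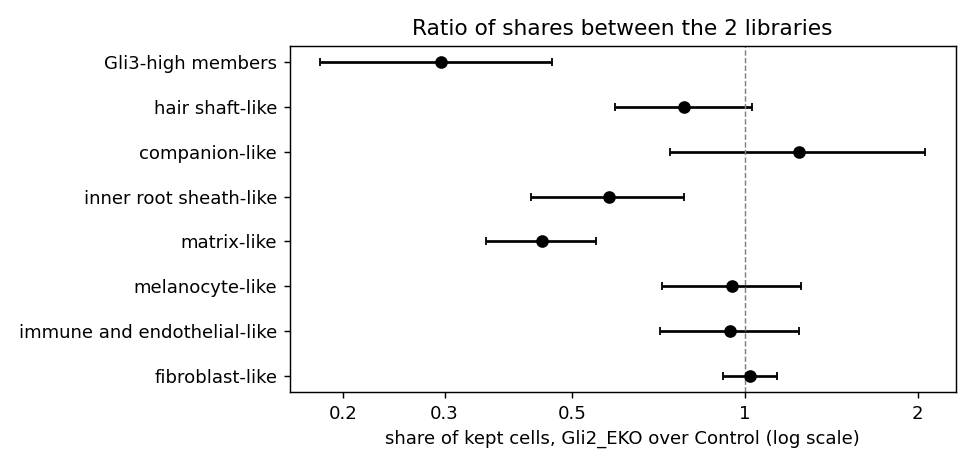
Ratio of the share of kept cells in the Gli2_EKO library over the share in the Control library, on a log axis, for Gli3-high members and 7 marker-gated classes. Points are ratios and bars exact 95% intervals for counting error; members have the lowest ratio, 0.296, and their interval reaches 0.462.

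Set against other follicle cells, the difference depended on the class used. There were 33.1 members per 100 matrix-like cells in the Control and 22.0 in the Gli2_EKO library, a ratio of 0.666 (0.390-1.10) whose interval included 1. Per 100 inner root sheath-like cells there were 76.0 and 38.7 members, a ratio of 0.510 (0.287-0.887). Per 100 hair shaft-like cells there were 75 and 28.2 members, a ratio of 0.377 (0.216-0.643). Per 100 companion-like cells there were 325 and 77.4 members, a ratio of 0.238 (0.118-0.481), from 36 and 31 companion-like cells. Per 100 melanocyte-like cells there were 86.7 and 27.0 members, a ratio of 0.311 (0.178-0.532). The counting interval thus included 1 against matrix-like cells and excluded 1 against the other classes given here.

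The genes of the rule describe how the members were chosen. Gli3 in single Control members ranged from 5.14 to 84.2 UMIs per 10,000, with a median of 14.9. In Gli2_EKO members it ranged from 5.89 to 138 per 10,000, with a median of 16.9. The ranges overlapped and the medians were close. Foxq1 was detected in 90 Control and 18 Gli2_EKO members, so the forkhead gene that names the lineage was not seen in every member. Krt75 was found in 71 and 14 members, the keratin Krt23 in 81 and 9, the transglutaminase Tgm6 in 68 and 17, and Vat1l in 60 and 16. Aldh1a3, which makes retinoic acid from retinaldehyde, was found in 106 and 18. Bmper, which codes for a secreted binder of bone morphogenetic proteins (BMPs), was found in 106 and 21. All 7 lineage genes were present in 33 Control and 2 Gli2_EKO members, and exactly 2 in 15 and 1.

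Cells close to the limits were few, and their levels are given with no test. The 10 Control members with 5 to 6 Gli3 UMIs per 10,000 had 799 CPM of Kitl and 392 CPM of Gpnmb. The 9 Control cells with 4 to 5 had 790 and 195 CPM. The 15 Control members with exactly 2 lineage genes had 637 CPM of Kitl and 42.4 CPM of Gpnmb. The 44 Control cells with 1 lineage gene had 371 CPM of Kitl and 94.2 CPM of Gpnmb. Kitl was thus close on both sides of the Gli3 limit, whereas the other levels differed. In the Gli2_EKO library, the 1 member with 5 to 6 Gli3 UMIs per 10,000 had 707 CPM of Kitl and 118 CPM of Gpnmb, and the 2 cells with 4 to 5 had 615 and 220 CPM. The 1 member with exactly 2 lineage genes had 4834 and 1432 CPM there, and the 11 cells with 1 lineage gene had 557 and 337 CPM.

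As summed levels, Foxq1 was at 398 CPM (367-432) in Control and 246 CPM (186-321) in Gli2_EKO members. Aldh1a3 was at 726 and 457 CPM, and Tgm6 at 155 and 184 CPM. Krt75 was at 436 CPM (404-471) in Control and 184 CPM (132-249) in Gli2_EKO members. Control Krt75 was uneven, with 45.7% of its UMIs in 3 cells and 243 UMIs in the highest member. The part of a library's transcripts that members held differed between these genes. Of all Foxq1 UMIs in kept cells, 55.4% were in Control members and 17.4% in Gli2_EKO members, read against 2.42% and 0.714% of the cells. For Aldh1a3 the shares were 53.2% and 28.1%, and for Krt75 they were 22.5% and 3.19%.

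Kitl and Gpnmb, given as markers but not used by the rule, were high in both libraries. The markers were given with earlier results of these data known, so their levels are a description. Kitl lies at chr10:99851492-99936278 and Gpnmb at chr6:49013426-49047863 (GRCm39). Kitl in single Control members ranged from 0 to 101 UMIs per 10,000, with a median of 19.7. In Gli2_EKO members it ranged from 2.95 to 80.6, with a median of 25.3. A Kitl UMI was present in 115 of 117 and in 24 of 24 members. The summed level was 2181 CPM (2107-2257) in Control and 2088 CPM (1902-2286) in Gli2_EKO members. The highest follicle class was hair shaft-like cells in both libraries, at 304 and 268 CPM. Members held 37.4% of all Kitl UMIs of the kept Control cells and 13.1% of those of the kept Gli2_EKO cells.

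Gpnmb codes for a transmembrane glycoprotein of melanosomes and lysosomes. It ranged from 0 to 89.7 UMIs per 10,000 in Control members, with a median of 9.07, and from 1.18 to 41.1 in Gli2_EKO members, with a median of 14.2. Its summed level was 1250 CPM (1194-1308) and 1201 CPM (1061-1353). Melanocyte-like Control cells had 1150 CPM of Gpnmb, a level close to that of the members. Other pigment cell genes were far lower in members. Dct, a melanin enzyme, was at 144 CPM in Control members against 13339 CPM in melanocyte-like cells, which were gated in part on Dct. In Control members 77.4% of the Dct UMIs came from 3 cells. Of the 10 melanocyte markers, 0 were at least 2-fold higher in members than in all other kept cells of either library, where 1.94% of 15861 genes were in Control and 4.31% in Gli2_EKO. The summed level of the list was 248 CPM in Control and 98.6 CPM in Gli2_EKO members. In Gli2_EKO members 5 of the 10 were at 0, and Kit itself had 8 UMIs in Control and 0 in Gli2_EKO members.

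**Figure D2:**
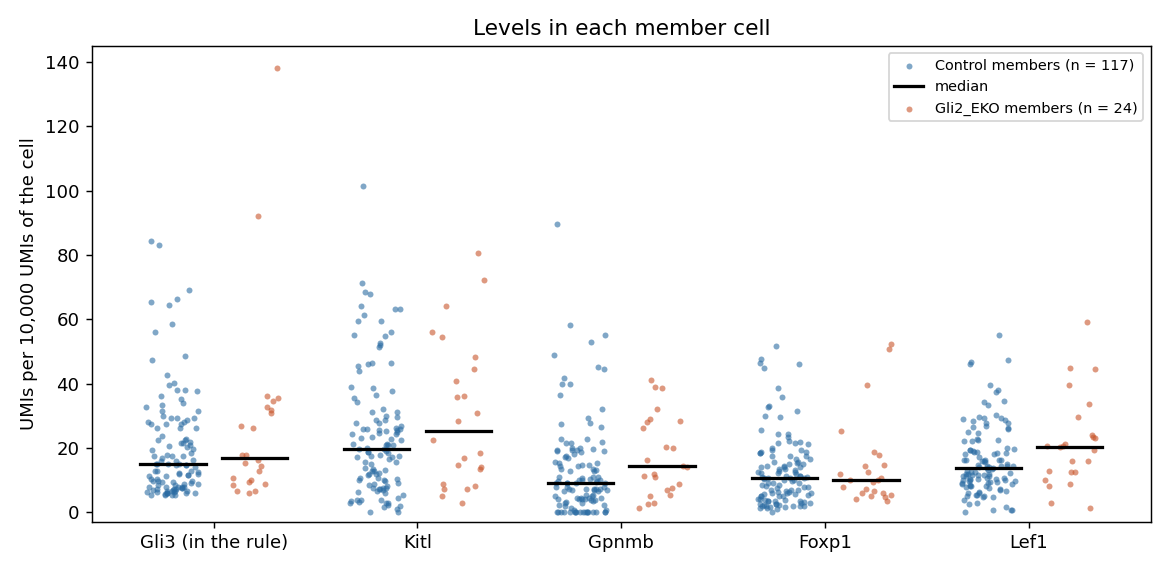
UMIs per 10,000 UMIs of the cell in each of 117 Control and 24 Gli2_EKO members, for Gli3, which is part of the rule, and for genes outside it; each point is 1 cell and black lines are medians. The ranges of the libraries overlap for every gene, and the Kitl medians are 19.7 and 25.3.

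Because depth sets how often a transcript is seen, each cell was also thinned to 2000 UMIs, which left out 1 Control and 0 Gli2_EKO members. At that depth Kitl was detected in 87.9% (80.6-93.2) of Control and 91.7% (73.0-99.0) of Gli2_EKO members. In immune and endothelial-like cells, which should lack most follicle transcripts, it was detected in 15.8% and 10.5%. Whether those cells make Kitl themselves was not tested. Gpnmb was detected in 67.2% and 83.3% of members and in 0% and 2.33% of immune and endothelial-like cells, where 0 of 133 Control cells allows up to 2.26%. Foxq1 was detected in 47.4% and 41.7% of thinned members and in 0 immune and endothelial-like cells of either library.

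The members' cell type was checked against marker lists. Keratinocyte genes were present, with 10 of 10 list genes above 0 in both libraries and a summed level of 6360 CPM in Control and 7002 CPM in Gli2_EKO members. Without 4 Krt1-rich cells described below, the Gli2_EKO sum was 4094 CPM. All other kept cells had more, 10931 CPM in Control and 15799 CPM in Gli2_EKO. Of the 10 genes, 0 in either library were 2-fold higher in members than in other cells, against 1.94% and 4.31% of all genes. Lower by 2-fold were 3 in Control and 4 in Gli2_EKO, against 5.88% and 9.14%. Krt14 was at 997 CPM in Control members against 3475 CPM in other Control cells. Hair matrix genes were high: 6 of 10 were at least 2-fold higher in Control members than in all other kept Control cells, and 7 of 10 in the Gli2_EKO library, against the same 1.94% and 4.31% of all genes. Lower by 2-fold were 1 and 0 of the 10, against 5.88% and 9.14% of all genes. The median log2 ratio of the list was 1.61 and 2.30, against -0.03 and -0.14 over all genes.

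Lef1, the partner factor of β-catenin in the matrix and precortex, had 1238 CPM (1183-1296) in Control and 1451 CPM (1298-1618) in Gli2_EKO members. Hair shaft-like cells had 1074 and 892 CPM, so a high Lef1 level was shared with them. Hoxc13, a homeobox factor of hair keratin expression, had 234 and 255 CPM in members and more in hair shaft-like cells, 368 and 433 CPM. Foxp1, a forkhead factor, was higher in members than in any of the follicle classes, at 1130 CPM (1077-1185) in Control and 1093 CPM (960-1239) in Gli2_EKO members. The next class, hair shaft-like cells, had 451 and 354 CPM.

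Markers of differentiated sheath layers differed between the libraries. Krt71 of the inner root sheath had 53.1 CPM in Control members against 3027 CPM in inner root sheath-like cells. In the Gli2_EKO library it had 8.96 against 6586 CPM. Inner root sheath-like cells were gated on Krt71 among others, so their high level is set by the gate. Of 8 ranked inner root sheath genes, 0 in Control and 2 in Gli2_EKO, Krt72 and Krt73, were 2-fold higher in members than in other cells, and 3 in each were lower. The list summed to 537 CPM in Control members and 713 CPM in all other Control cells, and to 806 and 949 CPM in the Gli2_EKO library. Krt72 and Krt73 had 80.6 and 291 CPM in Gli2_EKO members, with 100% of the UMIs of each in 3 cells. Both were at 0 without 4 Krt1-rich cells described below, and the list then summed to 187 CPM. Krt6a of the companion layer had 2 UMIs in Control and 0 in Gli2_EKO members. Krt79 had 69.7 CPM in Control members against 5041 CPM in companion-like cells, which were gated on Krt6a and Krt79. In Gli2_EKO members Krt79 had 417 CPM, and 7.21 CPM without the 4 cells. Krt17, a keratin of several sheath layers, was at 1494 and 802 CPM in members. Immune markers summed to 6.64 CPM in Control and 13.4 CPM in Gli2_EKO members, with 1 and 4 of 6 at 0. Endothelial markers summed to 4.65 and 4.48 CPM, with 2 and 4 of 5 at 0. Fibroblast markers summed to 387 and 318 CPM, or 582 and 71 UMIs, of which Dcn, a proteoglycan gene, gave 478 and 54.

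Clustering of all kept cells without the rule genes placed 124 of the 141 members, 87.9%, in 1 of 19 clusters. That cluster held 1368 cells, 9.06% of them members, together with 399 matrix-like, 217 hair shaft-like and 174 inner root sheath-like cells, and was led by S100a3, Krt35 and Krt28. Control and Gli2_EKO members entered it at 87.2% and 91.7%. Most members were thus placed with other cells of the hair bulb and did not form a cluster of their own at this resolution. Members lay in 11 clusters in all. A cluster led by Rspo3, Corin and Clstn2 held 3 Control members. Clusters led by Dct and Pmel and by Acta1 held 1 Control member each, and a cluster led by Flg and Lor held 2 Gli2_EKO members. The rule asked for no keratinocyte marker, so single members may be other cells.

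Genes outside the rule were ranked in the Control library by the smallest ratio of members over 4 follicle classes and over all other kept cells. A ratio of at least 2-fold in every one of these comparisons was reached by 49 of 3060 genes in Control, 1.60%, and by 62 in Gli2_EKO, 2.03%. The Control library chose these genes, so its values are a description. Of the first 20 genes, 15 passed the same 2-fold limit in the Gli2_EKO library, and 20 were above every comparison there. That library had no part in the ranking, but the same rule chose its members, so the recurrence is not independent of the rule. Of the 49 Control genes, 29 passed it and 49 were above every comparison. Kitl and Gpnmb, both given as markers beforehand, were among the first 20.

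Sct and Thsd4 were among the first 20. Sct, the gene of the peptide hormone secretin, had 205 CPM (183-229) in Control and 80.6 CPM (47.8-127) in Gli2_EKO members, and at most 8.72 CPM in the follicle classes and other cells of either library. Its 309 Control UMIs came from 60 members and its 18 Gli2_EKO UMIs from 9. Thsd4, an ADAMTS-like protein of the extracellular matrix, had 343 CPM (314-374) and 582 CPM (487-692), the higher level being in Gli2_EKO members. Thinned to 2000 UMIs, it was detected in 43.1% (33.9-52.6) and 70.8% (48.9-87.4) of members.

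Soat1, Adh6b, Cers4 and St3gal1 code for enzymes. Soat1 esterifies cholesterol and is mutated in mice with the hair interior defect, a medulla abnormality. It had 485 CPM (450-521) in Control and 161 CPM (113-223) in Gli2_EKO members, against at most 12.6 CPM in the 4 Control follicle classes and 82.4 CPM in all other Control cells. Adh6b, of the alcohol dehydrogenase family, had 304 and 134 CPM, and Gli2_EKO hair shaft-like cells had a similar 128 CPM. Cers4, a ceramide synthase, had 318 and 157 CPM. St3gal1, a sialyltransferase, had 95.6 and 134 CPM, and was as high in melanocyte-like Control cells, at 116 CPM, which were not part of the ranking.

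Padi3, a peptidylarginine deiminase that modifies trichohyalin, had 107 CPM in Control and 94.1 CPM in Gli2_EKO members. Inner root sheath-like cells of the Gli2_EKO library were at the same level, 93.3 CPM. From the same group of enzymes, Padi4 had 41.2 and 67.2 CPM in members and at most 9.74 CPM in matrix-like, inner root sheath-like and hair shaft-like cells. This maximum leaves out companion-like cells. Tgm3, a transglutaminase of the hair and sheath, had 78.4 and 40.3 CPM. The list of transglutaminases and deiminases, which includes the rule gene Tgm6, had 4 of 7 ranked genes 2-fold higher in Control and 3 of 7 in Gli2_EKO members than in other cells, against 1.94% and 4.31% of all genes.

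The remaining leading genes had varied roles. Prr5l, a partner of the mTOR complex, had 211 CPM (189-236) and 220 CPM (162-290), nearly the same in both libraries. Grik4 and Gria3, subunits of glutamate receptors, had 131 and 106 CPM in Control and 89.6 and 103 CPM in Gli2_EKO members. Zfhx3, a zinc finger homeobox factor, had 237 and 193 CPM. Mreg, a protein of melanosome and lysosome traffic, had 133 and 71.7 CPM, and Frmd4b, a scaffold of cell junctions, had 388 and 444 CPM. Nckap5 had 760 and 435 CPM, 4930523C07Rik 317 and 372 CPM, Ccdc68 112 and 80.6 CPM, and Dpysl3, which binds the cytoskeleton, 127 and 80.6 CPM. Dpysl3 had 134 CPM in melanocyte-like Control cells.

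**Figure D3:**
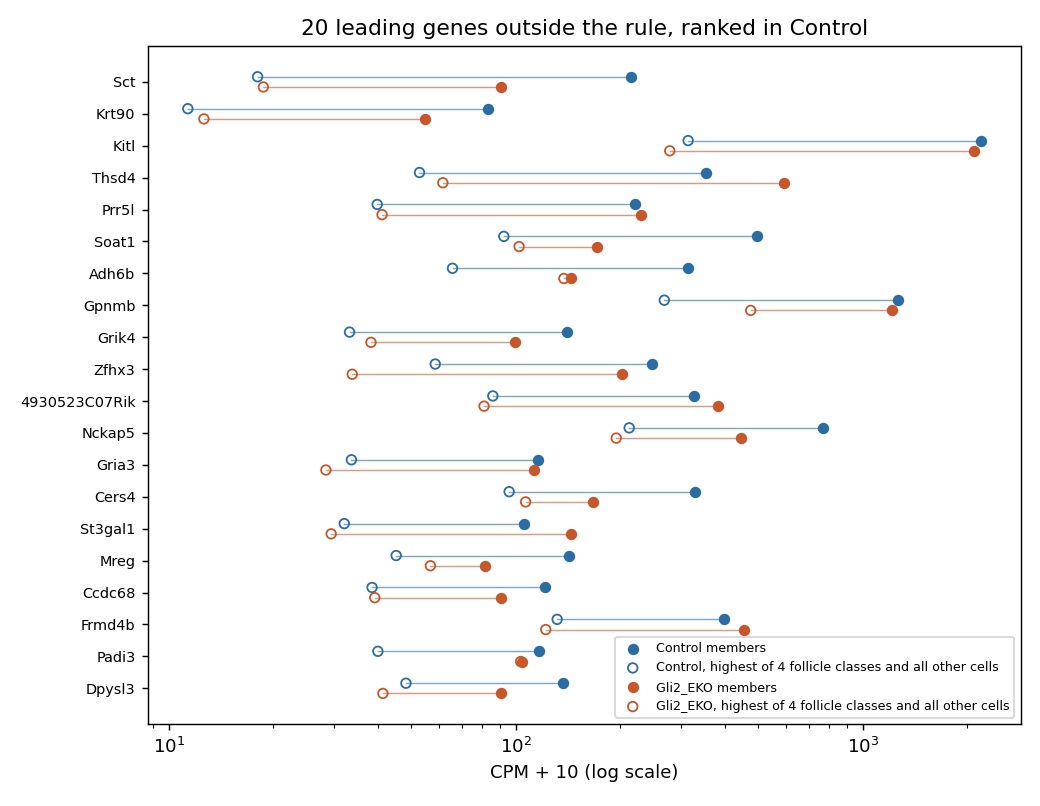
CPM plus 10, on a log axis, of the 20 leading genes outside the rule in Control and Gli2_EKO members (filled) and the highest level among 4 follicle classes and all other kept cells of the same library (open). Filled points lie right of the open points for 20 of 20 genes in both libraries; for Adh6b and Padi3 in Gli2_EKO the gap is small.

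Krt90, a type II keratin gene, lies 394 bases from Krt75 on the same strand of chromosome 15, with Krt75 at chr15:101471780-101482339 and Krt90 at chr15:101460791-101471385 (GRCm39, minus strand). It had 110 UMIs, 73.1 CPM (60.0-88.0), in Control members and 10 UMIs, 44.8 CPM (21.5-82.4), in Gli2_EKO members. Of 46 Control members with a Krt90 UMI, 38 also had Krt75. There were 16.7 Krt90 UMIs per 100 Krt75 UMIs in Control members and 24.4 in Gli2_EKO members. In all other kept cells there were 1.72 and 0.402 per 100, so the pair of keratins was not in a fixed proportion across cell types. Reads of adjacent genes on 1 strand can be assigned to either, and the part this has in Krt90 was not tested.

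The genes lowest in members were ranked in Control by the largest of the same ratios, over all genes and with no minimum of UMIs. Krtdap, a protein of differentiating epidermis, had 124 CPM in Control members against at least 301 CPM in each follicle class and in all other Control cells. Ablim1, an actin-binding protein, had 47.8 CPM against at least 90.9 CPM. Macroh2a1, a histone variant, had 88.3 CPM against at least 155 CPM. Fgfr3, a fibroblast growth factor receptor, had 14.6 CPM against at least 40.9 CPM, and Nrarp, a target and inhibitor of Notch, 14.6 CPM against at least 32.6 CPM. Vim, the intermediate filament of mesenchymal cells, had 28.6 CPM against 1075 CPM in all other cells and at least 52.8 CPM in the follicle classes. The list was completed by Plet1, Plekhg1, Gm973 and Septin11. In Gli2_EKO members, Krtdap and Ablim1 were at 3073 and 224 CPM, and at 36.0 and 36.0 CPM without the 4 Krt1-rich cells described below.

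Hedgehog genes were read by their role in the pathway. Among the ligands, Shh had 2 UMIs in Control and 4 in Gli2_EKO members, the latter in 1 cell, and Ihh and Dhh had 0 in both. Matrix-like cells, gated in part on Shh, had 85.3 and 137 CPM of Shh. Smo, the signal transducer, had 167 CPM (147-189) in Control and 184 CPM (132-249) in Gli2_EKO members, close to each other and above the 128 and 121 CPM of matrix-like cells. Of 6 receptors and co-receptors counted, 0 in either library were 2-fold higher in members than in other cells, against 1.94% and 4.31% of all genes. In each library 3 were 2-fold lower, against 5.88% and 9.14% of all genes. The 6 genes summed to 412 and 340 CPM in Control and Gli2_EKO members and to 632 and 605 CPM in all other cells. Matrix-like cells had 472 and 384 CPM, hair shaft-like cells 259 and 250 CPM, and inner root sheath-like cells 238 and 166 CPM. Companion-like cells had 406 and 164 CPM.

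Ptch1, both receptor and target, had 152 CPM (133-173) in Control and 76.2 CPM (44.4-122) in Gli2_EKO members. Matrix-like cells had 266 and 204 CPM. The interval of the log2 ratio of Gli2_EKO over Control members was -1.80 to -0.29 for Ptch1, which was just short of 2-fold lower. In Gli2_EKO, 76.5% of the 17 Ptch1 UMIs came from 3 cells. Gli1, the most direct target, had 10 UMIs in Control and 0 in Gli2_EKO members, where a count of 0 allows up to 3 UMIs. Hhip, a ligand-binding inhibitor and target, had 11 UMIs, 90.9% of them in 3 Control cells, and 0 in Gli2_EKO.

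The co-receptors had low absolute levels in members. Gas1 had 28.6 and 26.9 CPM, Cdon 13.3 and 17.9 CPM, and Boc 44.5 and 35.8 CPM in Control and Gli2_EKO members. Among the regulators of Gli processing, Gli3 was the only 1 of 11 list genes that was 2-fold higher in members than in other cells, which the rule fixes. The inhibitor Sufu had 39.2 and 22.4 CPM and the cilium kinesin Kif7 9 and 3 UMIs. The ubiquitin ligase adaptor Spop had 234 and 206 CPM, and Btrc, of the ligase that marks Gli3 for processing, 30.6 and 31.4 CPM. The kinases that act on Gli proteins had 41.8 and 35.8 CPM for Prkaca, 640 and 708 CPM for Csnk1a1, and 291 and 314 CPM for Gsk3b. Gpr161, a cilium receptor that favours the Gli3 repressor, had 14 UMIs in Control and 1 in Gli2_EKO members.

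Cyclins were the most abundant of the listed targets. Ccnd2 had 1111 CPM (1058-1166) in Control and 511 CPM (421-614) in Gli2_EKO members, and Ccnd1 458 CPM (425-494) and 157 CPM (109-218). Both were lower in Gli2_EKO members, with log2 ratios of -1.12 (-1.41 to -0.85) and -1.55 (-2.08 to -1.06). Matrix-like cells had 2771 and 2415 CPM of Ccnd2. Mycn had 34.5 and 44.8 CPM, Bcl2 71.1 and 67.2 CPM, and Sox9, an outer root sheath factor, 79 and 3 UMIs, with 50.6% of the Control UMIs in 3 cells. Of 4 targets counted that had enough UMIs to be ranked between the libraries, 2 were 2-fold lower in Gli2_EKO members and 0 higher. Over all 3492 ranked genes 4.75% were 2-fold lower and 1.49% higher.

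Wnt genes included a few that were high in members. Wnt5a had 213 CPM (191-238) in Control and 336 CPM (264-421) in Gli2_EKO members, and Wnt4 296 and 273 CPM. Znrf3, which removes Wnt receptors and is itself a Wnt target, had 343 CPM (314-374) and 533 CPM (442-638), and Axin2, another target, 75.0 and 76.2 CPM. Of 14 Wnt factors and feedback genes, 4 in Control and 5 in Gli2_EKO were 2-fold higher in members than in other cells, and 4 and 3 were lower. Of 9 Wnt ligands, 2 and 1 were higher and 0 and 3 lower. Over all genes 1.94% and 4.31% were higher and 5.88% and 9.14% lower.

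Id1 and Id3, targets of BMP signalling, had lower levels in Gli2_EKO members. Id3 had 248 CPM (223-274) in Control and 117 CPM (76.1-171) in Gli2_EKO members, and Id1 155 CPM (136-176) and 53.8 CPM (27.8-93.9). Bambi, a decoy receptor of the pathway, had 167 and 103 CPM, against 21.8 and 12.6 CPM in other cells. Of 6 ranked BMP antagonists and targets, 2, Id1 and Id3, were 2-fold lower in Gli2_EKO members and 0 higher, against 4.75% and 1.49% of the 3492 ranked genes. Without the 4 Krt1-rich cells neither was 2-fold lower, with log2 ratios of -0.96 and -0.71. The median log2 ratio of the 6 was -0.67 with and -0.15 without these cells.

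Retinoid genes beside Aldh1a3 were read because Aldh1a3 is part of the rule. Stra6, the receptor that takes up retinol, had 49.8 CPM (39.2-62.4) in Control and 67.2 CPM (37.6-111) in Gli2_EKO members. Other cells had 2.07 and 1.33 CPM and hair shaft-like cells 20.1 and 22.4 CPM. Rarg, a retinoic acid receptor, had 157 and 139 CPM. Of 14 ranked retinoid genes counted, the rule gene Aldh1a3 and Stra6 were the 2 that were 2-fold higher in members than in other cells in each library, against 1.94% and 4.31% of all genes. There were 2 in Control and 4 in Gli2_EKO that were 2-fold lower, against 5.88% and 9.14%.

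Members were not uniform in either library. They were split by the summed level of the 7 lineage genes, under 10, 10 to 30 and at least 30 UMIs per 10,000, with bounds set after the values had been seen. These genes are part of the rule, so the classes are a description. The classes held 28, 55 and 34 Control members and 3, 11 and 10 Gli2_EKO members. Kitl went from 815 CPM to 1968 and 3902 CPM across the Control classes and from 1227 to 1687 and 3851 CPM across the Gli2_EKO classes. Gpnmb went from 443 to 1047 and 2397 CPM in Control and from 246 to 960 and 2588 CPM in Gli2_EKO. The lowest Gli2_EKO class of 3 cells includes 1 of the 4 Krt1-rich cells, and the class of 11 cells includes 3. Split by the number of lineage genes present, 2 or 3, 4 or 5 and 6 or 7, Control members kept the order, with Kitl at 977, 1825 and 2691 CPM and Gpnmb at 255, 877 and 1702 CPM. Gli2_EKO members did not, with Kitl at 1523, 2776 and 1949 CPM and Gpnmb at 753, 1366 and 1371 CPM. Krt1 was at 8549, 58.1 and 7616 CPM across these Gli2_EKO classes, so the Krt1-rich cells lay in the first and the last. Median UMIs per cell were 5460, 10944 and 13135 in Control and 5337, 5109 and 8771 in Gli2_EKO. The part of the Krt1-rich cells and of depth in either order was not tested.

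Across the classes of lineage level, Foxp1 was at 486, 1044 and 1918 CPM in Control and at 791, 742 and 2302 CPM in Gli2_EKO. Lef1 was nearly level in Control, at 1048, 1308 and 1308 CPM, and at 791, 1142 and 2812 CPM in Gli2_EKO. Cell cycle genes ran the other way in Control. The summed level of 20 G2/M genes was 3604, 1718 and 1146 CPM across the Control classes and 2018, 1426 and 530 CPM across the Gli2_EKO classes. Ccnd2 was at 1647, 1176 and 467 CPM in Control. Mki67, a gene of cycling cells, was detected in 24, 34 and 14 cells of the Control classes. By the number of lineage genes, the G2/M sum was 3430, 2426 and 1512 CPM in Control and 573, 2660 and 836 CPM in Gli2_EKO. The order was thus not the same for both splits in Gli2_EKO, where the first and last classes by number hold the Krt1-rich cells.

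Depth, Dcn and Krt14 moved with the classes of lineage level. Median UMIs per cell were 13828, 11082 and 10860 in Control, and 12064, 8149 and 4026 in Gli2_EKO. In the highest Gli2_EKO class the median mitochondrial share was 7.64%. The rank correlation of UMIs per cell with the lineage level was -0.03 in Control and -0.71 in Gli2_EKO members, over 117 and 24 cells that share a library and whose levels are divided by the same UMIs. Dcn was at 453, 393 and 54.1 CPM and Krt14 at 1476, 1252 and 83.6 CPM across the Control classes. The part of depth, Dcn and Krt14 in the order was not tested.

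**Figure D4:**
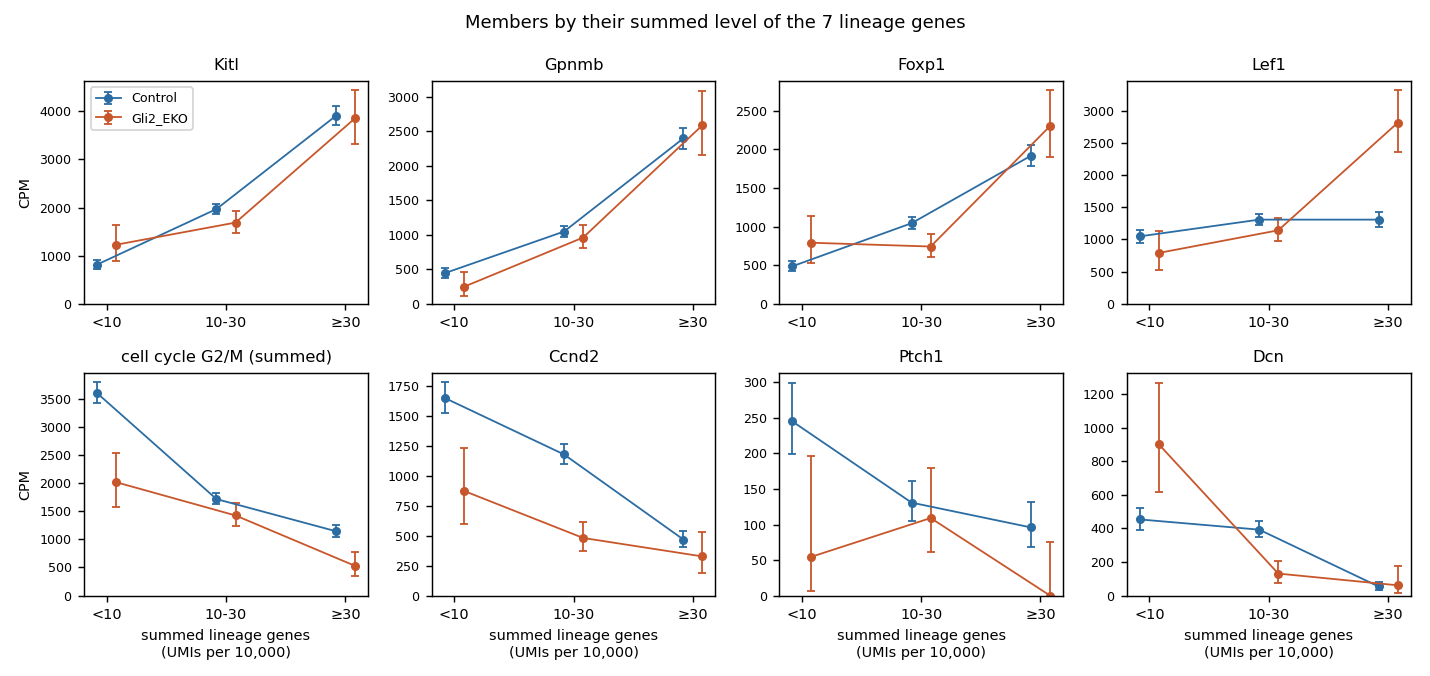
CPM of selected genes and of summed G2/M genes in members split by the summed level of the 7 lineage genes (UMIs per 10,000), for Control (28, 55 and 34 cells) and Gli2_EKO (3, 11 and 10 cells). Points are levels and bars exact Poisson 95% intervals; Kitl reaches 3902 and 3851 CPM in the highest class while the G2/M sum is lowest there.

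Within the members, 3492 genes had enough UMIs to be compared between the libraries. In Gli2_EKO members 52 genes, 1.49%, were at least 2-fold higher and 166, 4.75%, at least 2-fold lower, and the median log2 ratio was -0.11. The higher genes were led by epidermal differentiation genes. Krt1 and Krt10, keratins of the suprabasal epidermis, had 51.8 and 81.0 CPM in Control and 5541 and 7298 CPM in Gli2_EKO members. With Prr9, Calm4, Krtdap, Stfa1, Cstdc5, Ly6d and Stfa3 they were the 9 highest genes, with log2 ratios from 3.48 to 6.74.

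These levels came from few cells. There were 4 Gli2_EKO members with at least 20 Krt1 and Krt10 UMIs per 10,000 and 0 such Control members, and the 4 cells held 37.8% of all UMIs of Gli2_EKO members. Of the 52 higher genes, 47 had over 50% of their UMIs in 3 Gli2_EKO cells. The 7 suprabasal markers summed to 394 CPM in Control members and to 16163 CPM in Gli2_EKO members, with 0 of 7 at 0 in either. Without the 4 cells the sum was 231 CPM, Krt1 was at 50.5 CPM and Krt10 at 72.1 CPM. The 4 cells had a median of 22067 UMIs, and 1 of them was in the top 8% of its library by doublet score. The part of doublets in these cells was not tested beyond this score.

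Leaving the 4 cells out was a setting added after seeing the data. It kept 20 Gli2_EKO members, with 65 of 3259 genes, 1.99%, at least 2-fold higher and 132, 4.05%, lower. Kitl was then at 2789 CPM and Gpnmb at 1643 CPM in Gli2_EKO members, log2 ratios of 0.35 and 0.39 over Control against -0.06 and -0.06 with the cells. Lef1 was at 1982 and Foxp1 at 1377 CPM. For Ptch1 the log2 ratio was then -0.40, for Ccnd1 -1.35 and for Ccnd2 -0.86.

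Of the 10 highest genes, Csmd1 was the 1 that stayed higher without the 4 cells, with a log2 ratio of 2.96 (2.58 to 3.34) with them and 3.59 without them. Csmd1 codes for a large membrane protein with CUB and Sushi domains. It had 111 UMIs, 73.7 CPM (60.6-88.8), in 16 of 117 Control members and 128 UMIs, 573 CPM (478-682), in 12 of 24 Gli2_EKO members. In other classes of the follicle it was at most 23.5 CPM in Control and 9.22 CPM in matrix-like, inner root sheath-like and hair shaft-like Gli2_EKO cells. The Gli2_EKO maximum leaves out companion-like cells. Thinned to 2000 UMIs, it was detected in 6.90% (3.02-13.1) of Control and 33.3% (15.6-55.3) of Gli2_EKO members, and in 0 immune and endothelial-like cells of either library. In Gli2_EKO 65.6% and in Control 42.3% of its UMIs were in 3 cells.

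The lowest genes in Gli2_EKO members were spread over more functions. Ucp2, a mitochondrial carrier, had 306 CPM (278-335) in Control and 49.3 CPM (24.6-88.2) in Gli2_EKO members. Sox5, a transcription factor, had 322 CPM (294-352) and 80.6 CPM (47.8-127), against 928 and 772 CPM in matrix-like cells. Krt25 of the inner root sheath had 114 and 22.4 CPM, with 62.0% of the Control UMIs in 3 cells. Tpm1, an actin-binding tropomyosin, had 260 and 58.2 CPM, and Dst, a linker of keratin filaments to hemidesmosomes, 153 and 40.3 CPM. Pdzrn3, Matr3, Rfc4 and Bex3 each had 5 UMIs in Gli2_EKO members, the minimum for a gene to be ranked. The log2 ratios of the genes named here stayed negative without the 4 cells, from -3.98 for Krt25 to -1.18 for Bex3.

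**Figure D5:**
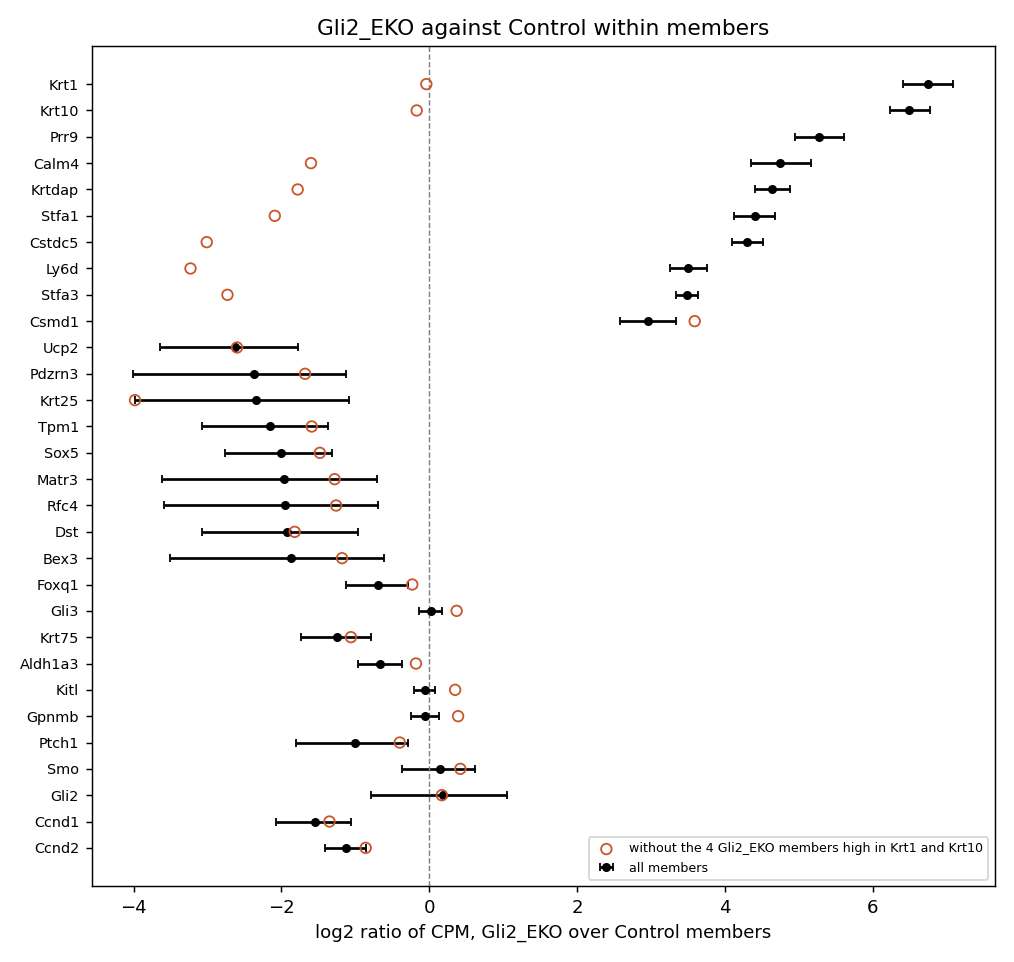
Log2 ratio of CPM, Gli2_EKO over Control members, for the genes with the highest and lowest ratios and for selected markers and Hedgehog genes; black points with exact 95% intervals use all members, open points leave out the 4 Gli2_EKO members high in Krt1 and Krt10, and Prr9 has none because 0 of its UMIs are left. Without those cells Krt1 moves from 6.74 to -0.04, whereas Csmd1 moves from 2.96 to 3.59.

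Other genes that serve as markers of other cell types were present in both libraries. At least 20 Krt14 UMIs per 10,000 were found in 9 Control members, 5 of them in the top 8% by doublet score, and in 2 Gli2_EKO members. At least 5 Dcn UMIs per 10,000 were found in 25 and 4 members, and at least 2 of 5 melanocyte markers in 8 and 3. In the 24 Dcn-rich Control members that were not Krt14-rich, Dcn gave 394 of 410 fibroblast-list UMIs and Lum gave 1. Matrix-like cells had 1594 and 1716 CPM of that list in Control and Gli2_EKO, against 387 and 318 CPM in members. The rule limits Col1a1 and Col1a2, so cells rich in other fibroblast transcripts were partly left out beforehand. The source of Dcn in members was not tested. Dermal papilla markers summed to 62.4 CPM in Control members and to 0 in Gli2_EKO members, where 8 of 8 were at 0. Of the 94 Control UMIs of that list, 87 came from 3 cells. Their part in the levels of the members was not tested beyond the settings that leave such cells out.

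Cell cycle genes were lower in Gli2_EKO members in sum, which for G2/M genes rested on the 4 Krt1-rich cells. The 20 G2/M genes summed to 2069 CPM in Control and 1326 CPM in Gli2_EKO members, against 4850 CPM in Control matrix-like cells. Without the 4 cells the Gli2_EKO sum was 2083 CPM, close to the Control sum. The 16 S phase genes summed to 1157 and 569 CPM, and to 829 CPM in Gli2_EKO without the 4 cells. Of 9 ranked S phase genes 4 were 2-fold lower in Gli2_EKO members and 0 higher, and of 10 ranked G2/M genes 0 were lower or higher, against 4.75% lower and 1.49% higher over all ranked genes. The median log2 ratio of the 9 S phase genes was -0.89, and -0.32 without the 4 cells. Thinned to 2000 UMIs, Mki67 was detected in 31.0% of Control and 25% of Gli2_EKO members, and in 32.3% and 26.7% of immune and endothelial-like cells, so no difference in cycling was read from it.

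Promoters were searched for the Gli binding letters GACCACCCA on either strand, from 250 bases before to 50 after the gene start (RefSeq, GRCm38.p6). These letters were in 83 of 32851 promoters, 0.253%. They were in 0 of the 15 leading genes, 0 of the 7 rule genes and 0 of the 15 Hedgehog genes that matched the table by symbol, which says only that these letters are not in these windows.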

How the data were processed

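The authors aligned the reads to GRCm39 and counted UMIs with Cell Ranger 9.0.1, and the deposited matrices hold raw UMI counts per gene and cell barcode for 2 libraries of 2-day-old mouse epidermis, 1 per genotype. Cells were filtered by the limits of the rule, doublets were not removed, and 4844 Control and 3362 Gli2_EKO cells were kept, with 67366296 and 46703537 UMIs. Members and gene lists were chosen with earlier results of these data known.

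From the counts, UMIs were summed over cells and scaled to CPM. Intervals were exact Poisson for CPM, Clopper-Pearson for shares and exact conditional binomial for ratios (scipy 1.17.1), all at 95% and for counting error only. Ratios over other cells had 10 CPM added. Leading genes had at least 100 UMIs in Control members and a UMI in 25% of them. The 20 with the largest smallest ratio were named. The 10 lowest were those with the lowest largest ratio among all genes, with no minimum of UMIs. Between libraries, genes needed 100 UMIs in all and 5 in each, and the 10 highest and 10 lowest were named. Some genes are not reported here and are left out of the named genes and list counts. List genes were ranked over other cells with at least 100 UMIs in all kept cells. Cells were clustered with scanpy 1.11.5 (2000 variable genes without the rule genes, 20 components, resolution 0.5, no batch integration). Scrublet called 291 Control cells (6.01%), 14 of them members, and 4 Gli2_EKO cells (0.119%), 0 of them members. Its threshold was not usable in Gli2_EKO, and the top 8% of scores in each library served as an alternative. That top held 17 of 117 Control members, 14.5%, and 1 of 24 Gli2_EKO members, 4.17%. The ratios were first run on simulated summed counts with no spread between cells. That setting cannot show what UMIs held by few cells do to a ratio.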

Additional observations from a re-analysis of the deposited data

How the results depend on the processing

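Under every alternative run, the ratio of the members' shares lay between 0.235 and 0.332 and that of members per 100 matrix-like cells between 0.555 and 0.741, each within its counting interval. Members in the Gli2_EKO library came to 15 when cells were thinned to 5000 UMIs, which leaves out shallower cells. The Control share was 2.911% and 1.61% with a Gli3 minimum of 3 and 10, 3.324% with 1 lineage gene, and 1.899% without Dcn-rich members, as looser and stricter rules require. Genes 2-fold over every comparison in Control numbered 24 after thinning and 32 with a minimum 2 times as high. Genes 2-fold higher in Gli2_EKO members numbered 20 after thinning, 1601 with no minimum and 24 with the higher minimum. Genes 2-fold lower numbered 27, 1216 and 46 under these, 101 with a Gli3 minimum of 10 and 99 without the top 8% of doublet scores, all with other numbers of genes or cells tested. The share of members in 1 cluster was 75.18% at resolution 1.0 and 70.21% with 30 components.

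The alternatives' log2 ratios of 51 named genes were labelled by their distance from the reported value. Of these, 733 were labelled as within its counting interval, 112 as beyond it and 18 as changed in sign. A change of sign was counted only for genes at least 2-fold apart, so smaller ratios that crossed 0 are among the others. Thsd4, reported at 0.77, ranged from -0.05 to 1.14, and Kitl, reported at -0.06, from -0.22 to 0.35. Without the Krt1 and Krt10 members, a setting added after seeing the data, the ratios were -0.04 for Krt1, -0.17 for Krt10, -1.60 for Calm4, -1.78 for Krtdap, -2.09 for Stfa1, -3.01 for Cstdc5, -3.23 for Ly6d and -2.73 for Stfa3. Leaving out Krt14 members too gave -0.23 for Krt10, -1.28 for Calm4, -0.82 for Cstdc5, -2.00 for Ly6d and -0.13 for Stfa3. Krt1, Krtdap and Stfa1 were not changed in sign in that setting. Both settings remove the cells that held these transcripts. Prr9 was at -1.46 without the top 8% of doublet scores and -3.45 without cells with 2 melanocyte markers. With a Gli3 minimum of 10, Stfa1 was at -0.95 and Stfa3 at -1.01. With 1 lineage gene, Sox5 was at 0.08, and for it and the preceding 4 values the cause was not tested. The log2 ratio of Csmd1 was between 1.71 and 3.82 under all alternatives run.

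No paired analysis was possible because each genotype had 1 library, and leaving out a library leaves no comparison. With 24 Gli2_EKO members, genes under about 5 UMIs could not be compared.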
